A study of Mus musculus with 12 samples.

Results

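The genes described here form a module of nucleotide synthesis and one-carbon metabolism. The module was given as a list of 41 mouse genes: enzymes of serine synthesis, the folate cycle, purine and pyrimidine synthesis, deoxynucleotide production, nucleotide phosphorylation and the polyamine enzyme Srm. Members were found by their gene symbol in the annotation of the array platform, with 1 probe set per gene, the one with the highest mean over all arrays. Of the 41 genes, 40 had such a probe set, among 23410 probe sets with a gene symbol. 38 matched by symbol and 2 through an older one: Hprt1 appears as Hprt on the platform and Ctps1 as Ctps. Impdh2 was not analysed here. The 40 genes comprised 3 of serine synthesis, 5 of the folate cycle, 8 of the purine route to inosine monophosphate (IMP), 2 that convert IMP to GMP, 2 of purine salvage, 5 of pyrimidine synthesis, 9 of deoxynucleotide metabolism, 5 nucleotide kinases and Srm.

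The study compared naive CD4 T cells from C57BL/6 mice transgenic (Tg) for PP2Ac, which is the catalytic part of the phosphatase PP2A, with cells from wild-type (WT) C57BL/6 mice. RNA was taken at 0 h, from unstimulated cells, and after 6 h and 24 h of stimulation in RPMI medium with serum, with soluble antibodies against CD3 and CD28 over a plate-bound goat antibody to hamster immunoglobulin. Each of the 6 groups (Tg at 0, 6 and 24 h, WT at 0, 6 and 24 h) had 2 one-colour arrays. In every group the word Rep ends the title of 1 array, and its partner is called the unmarked array. The promoter that drives the transgene and the age of the mice are not given in the labels, which also do not say whether the arrays came from separate mice or cultures, so the p-values measure only the spread between these samples.

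Proliferating cells need nucleotides for RNA and DNA. Serine, made from a glycolytic intermediate or taken up, gives a carbon unit to folate, and the folate cycle hands such units to purine synthesis and to the methylation that makes thymidylate. Purines and pyrimidines are built on activated ribose phosphate, ribonucleotide reductase turns ribonucleotides into deoxynucleotides, and salvage enzymes recycle bases and nucleosides. Resting naive T cells rely largely on salvage, and activation through the T cell receptor is known to switch on the synthetic routes before the cells enter S phase.

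Values are the deposited log2 values after quantile normalisation between arrays, so each describes a gene relative to the other transcripts on its array and not an amount per cell. The 2 arrays of a group correlated at 0.9914 to 0.9969 (Pearson's r over probe sets, a description). The means of 8 measured T cell markers (Cd3e, Cd4, Cd28 and others) lay between 12.70 and 13.12 on every array. The means of 10 activation markers ran from 10.32 to 10.72 at 0 h, from 12.64 to 12.83 at 6 h and from 12.20 to 12.69 at 24 h. RNA of other cells was also present, and fewer cells of a type and less RNA per cell cannot be told apart. The mean of 9 neutrophil markers was 12.20 and 11.41 at 0 h, 11.34 and 10.72 at 6 h, and 10.58 and 10.13 at 24 h in Tg cells, against 12.40 and 9.02, 11.68 and 8.68, and 11.44 and 7.93 in WT cells (unmarked array first, here and below). The neutrophil mean was thus lower at later times in both genotypes, and its part in the differences with time was not tested. The 3 WT arrays marked Rep stood apart, and results that change without them are named. Ppp2ca, which encodes PP2Ac, read 13.69 to 13.90 on the 6 Tg arrays and 13.15 to 13.42 on the 6 WT arrays, and was higher in Tg cells by 0.57 ± 0.05 over the 3 times (limma adjusted p = 0.00438). At single times it did not pass (adjusted p = 0.0551 at 0 h, 1 at 6 h and 0.282 at 24 h), except at 0 h with the mark Rep as a block in the fit (0.0347).

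After 6 h of stimulation most of the module had risen. In Tg cells 29 of the 40 genes were higher than at 0 h and 3 were lower, at an adjusted p under 0.05 (limma, Benjamini-Hochberg over all probe sets tested), the threshold used throughout. That is 80.0% of the members, against 25.4% of all probe sets tested (12.5% higher, 12.9% lower). The members were chosen with earlier results of these data known, so such shares, here and below, are descriptions and not independent evidence. WT cells had 29 higher and 3 lower members, against 26.5% of all probe sets (12.6% higher, 13.9% lower), and these were the same 32 genes as in Tg cells. The called rises ran from 0.51 to 3.73 (1.43-fold to 13.2-fold) in Tg cells and from 0.49 to 3.85 (1.40-fold to 14.4-fold) in WT cells. The median difference of the 40 members was 1.08 in Tg cells and 1.04 in WT cells, against 0.00 and -0.01 over all probe sets tested. Dctd, Shmt1, Psat1 and Srm were among the genes with the largest rises in both genotypes. Ak4 was too with the probe set used, but its second probe set rose far less. Ctps2, Rrm2b and Dck were the 3 that fell.

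**Figure D1:**
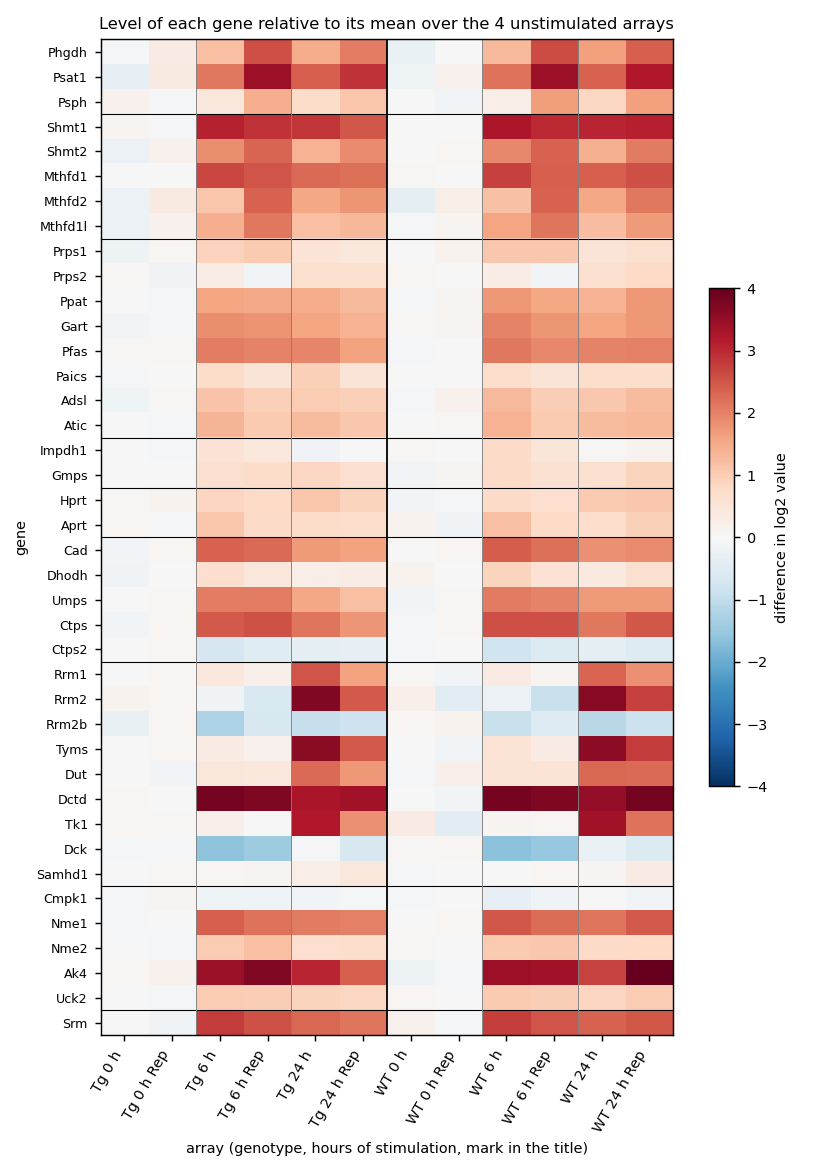
Log2 level of each of the 40 genes (rows, grouped by role) on each of the 12 arrays (columns), as the difference from its mean over the 4 unstimulated arrays. Most rows are red at 6 h and 24 h in both genotypes, Rrm1, Rrm2, Tyms and Tk1 are red at 24 h, and Ctps2, Rrm2b and, at 6 h, Dck are blue. Hprt1 and Ctps1 are shown as Hprt and Ctps.

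At 24 h the module was still raised, and genes of DNA precursor production had joined it. Of the 40 members 32 were higher and 2 lower than at 0 h in Tg cells, against 23.8% of all probe sets (12% higher, 11.8% lower). In WT cells 33 were higher and 2 lower, against 26.7% (12.9% higher, 13.8% lower). The 32 raised in Tg cells were all raised in WT cells, and Dhodh passed in WT cells alone, without a difference between the responses that passed (limma adjusted p = 1). The median difference from 0 h was 1.37 in Tg cells and 1.57 in WT cells, against -0.01 and -0.02 over all probe sets. Ctps2 and Rrm2b were the 2 lower genes in both genotypes. In Tg cells Ctps2 missed the threshold without any 1 of the 4 arrays compared, and Rrm2b without either 24 h array or the 0 h array marked Rep. The count of lower members was then 1 without the unmarked 0 h array (Rrm2b), 1 without the unmarked 24 h array (a member other than these 2), and 0 without either array marked Rep. In WT cells the count was 1 without the array marked Rep at 0 h or at 24 h, Ctps2 being lost, and Rrm2b kept its call in every alternative.

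Between 6 h and 24 h the members moved in both directions. In Tg cells 7 were higher at 24 h than at 6 h and 7 were lower, against 14.3% of all probe sets called (7.89% higher, 6.42% lower). In WT cells 8 were higher and 3 lower, against 13.3% (7.49% higher, 5.86% lower). That WT count of lower members was near the share of all probe sets. Dck, Dut, Prps2, Rrm1, Rrm2, Tk1 and Tyms were higher in both genotypes and Hprt1 passed in WT cells. Cad, Impdh1 and Prps1 were lower in both, and Ctps1, Dctd, Nme2 and Umps passed in Tg cells. The median over the members was -0.13 in Tg cells and -0.03 in WT cells, against -0.02 and -0.03 over all probe sets. Leaving out single arrays moved the WT median between -0.19 (without the 24 h array marked Rep) and 0.10 (without the unmarked 24 h array), so it has no settled sign. The Tg median ran from -0.19 to -0.13. The count of lower members became 3 in Tg cells without either 6 h array or the unmarked 24 h array, and 0 in WT cells without the unmarked array at 6 h or at 24 h. Counted by both times against 0 h, 27 genes in Tg cells and 28 in WT cells were raised at 6 h and at 24 h, and Prps2, Rrm1, Rrm2, Tk1 and Tyms passed at 24 h alone in both genotypes. Cmpk1, Psph and Samhd1 passed at neither time.

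The mark was also entered as a block, which kept every call. With this replicate block, 32 members were called at 6 h against 0 h in Tg cells and 32 in WT cells, against 29.4% and 30.5% of all probe sets. At 24 h against 0 h they numbered 35 and 37, against 28.2% and 31.3%, and at 24 h against 6 h 18 and 12, against 19.3% and 18.4%.

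Some WT calls were lost without the 3 arrays marked Rep. Then 1 WT array was left per time, taken to vary like the Tg arrays, so the precision was lower too. The WT calls of Phgdh, Mthfd2, Paics, Rrm2b and Dut at 6 h then missed the threshold. So did those of Phgdh, Mthfd2, Prps1, Prps2, Paics, Aprt, Dhodh and Ctps2 at 24 h. Those of Prps1, Prps2, Hprt1 and Cad between 6 h and 24 h were also lost. At 6 h Paics (0.68), Rrm2b (-0.97) and Dut (0.61) were then larger in size, and Phgdh (1.58) and Mthfd2 (1.55) smaller. At 24 h Mthfd2 (1.89), Prps1 (0.54) and Paics (0.69) were about as before. Phgdh (1.92), Prps2 (0.57), Aprt (0.56), Dhodh (0.25) and Ctps2 (-0.31) were smaller. Between 6 h and 24 h Prps1 (-0.57) and Cad (-0.60) were larger, and Prps2 (0.36) and Hprt1 (0.29) smaller. In Tg cells Dut at 6 h and Prps2 and Ctps1 between 6 h and 24 h missed it too (adjusted p = 0.0538 to 0.0725). The rest kept their calls. With only the groups compared in the fit, Dhodh and Ctps2 at 24 h (adjusted p = 0.0513 to 0.0764) and Prps1, Prps2, Impdh1, Hprt1 and Cad between 6 h and 24 h (adjusted p = 0.0781 to 0.137) missed the threshold in WT cells, as did Prps2, Ctps1 and Nme2 between 6 h and 24 h in Tg cells (adjusted p = 0.0754 to 0.0859). The Tg calls of Prps2 and Ctps1 between 6 h and 24 h were also lost with the values as deposited (adjusted p = 0.0535 and 0.0588), with median centring (0.0914 and 0.0683) and with all rows (0.0556 and 0.0558). That of Hprt1 in WT cells was lost with median centring (0.112), deposited values (0.0693) and array weights (0.0542).

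**Figure D2:**
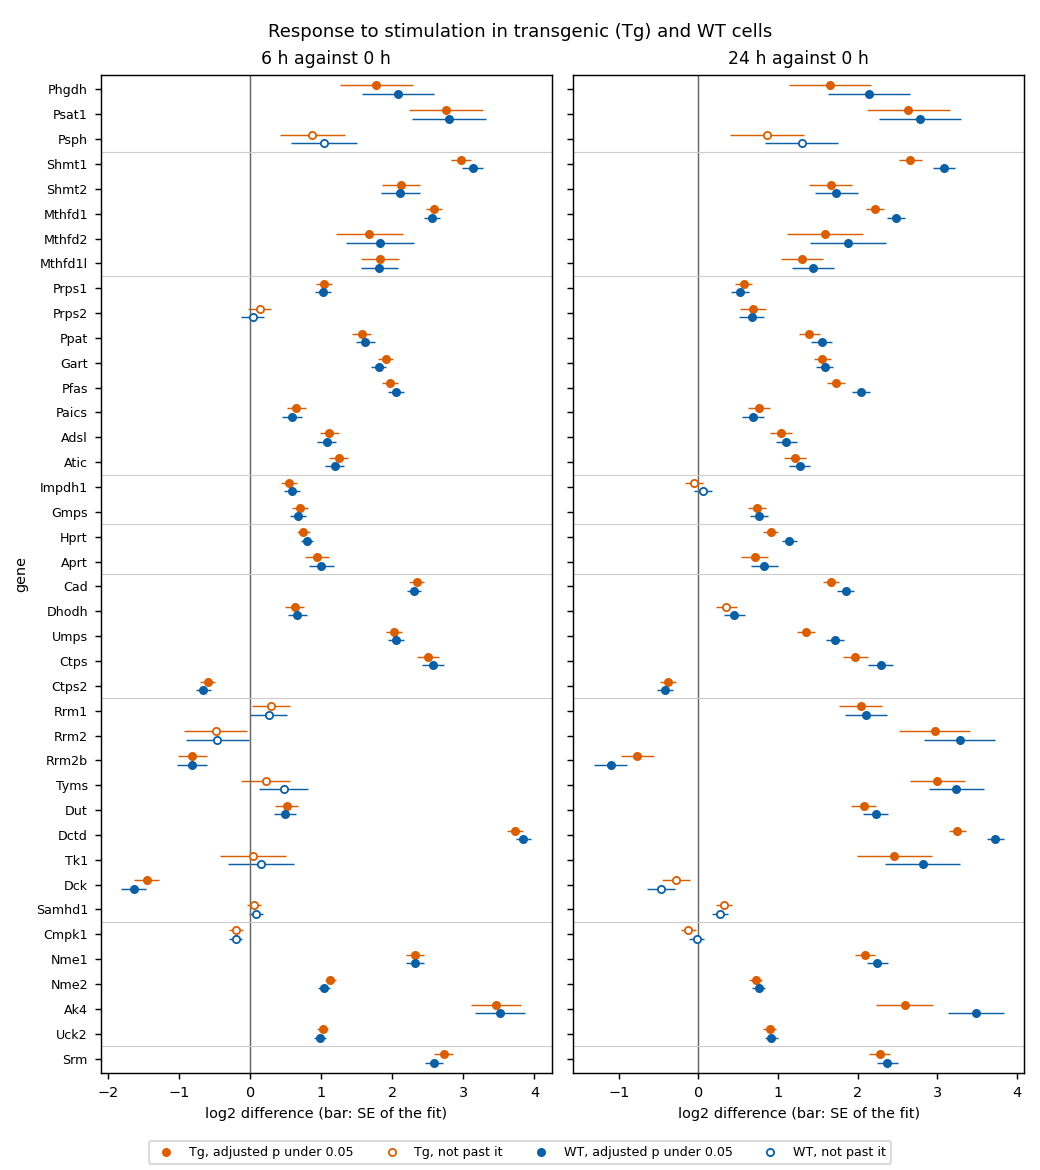
Log2 difference from 0 h for each gene at 6 h (left) and 24 h (right), in Tg (orange) and WT (blue) cells, with the SE of the fit. Filled points passed an adjusted p of 0.05. The points of both genotypes lie close together for most genes, and Rrm1, Rrm2, Tyms and Tk1 are open near 0 at 6 h and filled above 2 at 24 h.

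Serine synthesis runs from Phgdh, which oxidises 3-phosphoglycerate in the first committed step, through the aminotransferase Psat1 to the phosphatase Psph. Phgdh and Psat1 rose at both times in both genotypes, and Psph did not pass. Psat1 read 9.53 and 10.21 at 0 h, 11.96 and 13.30 at 6 h, and 12.25 and 12.76 at 24 h in Tg cells. WT cells gave Psat1 readings of 9.69 and 10.03 at 0 h, 12.04 and 13.28 at 6 h, and 12.23 and 13.06 at 24 h. No stimulated array came near an unstimulated one, and within each stimulated group the array marked Rep was the higher one. Psat1 rose by 2.76 ± 0.52 at 6 h (6.75-fold, limma adjusted p = 0.00373) and by 2.63 ± 0.52 at 24 h (adjusted p = 0.00607) in Tg cells. In WT cells the rises were 2.80 ± 0.52 (6.96-fold, adjusted p = 0.0033) and 2.78 ± 0.52 (adjusted p = 0.00386).

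Phgdh read 9.28 and 9.69 at 0 h, 10.56 and 11.95 at 6 h, and 10.85 and 11.41 at 24 h in Tg cells. WT cells gave Phgdh readings of 9.09 and 9.38 at 0 h, 10.67 and 11.96 at 6 h, and 11.01 and 11.75 at 24 h. No stimulated array overlapped the unstimulated ones, but the array marked Rep stood well above its partner at 6 h in both genotypes. Phgdh rose by 1.77 ± 0.51 at 6 h and 1.65 ± 0.51 at 24 h in Tg cells (adjusted p = 0.0318 and 0.0461) and by 2.08 ± 0.51 and 2.14 ± 0.51 in WT cells (adjusted p = 0.0149 and 0.0133). In Tg cells the call at 6 h ended without either 0 h array or the 6 h array marked Rep (1.08 to 1.98, adjusted p = 0.08 to 0.214), and the call at 24 h without any 1 of the 4 arrays compared or of the 4 WT arrays at 0 h and 24 h (1.36 to 1.93, adjusted p = 0.05 to 0.2). In WT cells both calls ended without the unmarked 0 h array or the stimulated array marked Rep (1.43 to 2.00, adjusted p = 0.0696 to 0.0981). With all arrays and the mark Rep as a block in the limma fit, the 6 h rises of Phgdh had adjusted p = 0.001 in Tg cells and 0.000415 in WT cells.

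Psph read 8.64 and 8.45 at 0 h, 8.93 and 9.92 at 6 h, and 9.22 and 9.60 at 24 h in Tg cells. WT cells gave Psph readings of 8.47 and 8.37 at 0 h, 8.76 and 10.15 at 6 h, and 9.30 and 10.13 at 24 h. In the 6 h groups the 2 arrays differed by about as much as the group means did from 0 h. Psph stood 0.88 ± 0.46 above 0 h at 6 h and 0.86 ± 0.46 at 24 h in Tg cells (adjusted p = 0.23 and 0.239), and 1.04 ± 0.46 and 1.29 ± 0.46 in WT cells (adjusted p = 0.147 and 0.0706). With the mark Rep as a block in the fit, the WT value at 24 h passed (adjusted p = 0.0221).

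All 5 folate cycle genes rose at 6 h and at 24 h in both genotypes. They are the serine hydroxymethyltransferases Shmt1 (cytosolic) and Shmt2 (mitochondrial), which move a carbon from serine to folate, the cytosolic trifunctional enzyme Mthfd1, and the mitochondrial enzymes Mthfd2 and Mthfd1l, which oxidise that carbon and release it as formate. The median rise of the 5 genes was 2.12 at 6 h and 1.66 at 24 h in Tg cells, and 2.11 and 1.88 in WT cells. Shmt1 read 7.74 and 7.54 at 0 h, 10.70 and 10.51 at 6 h, and 10.49 and 10.11 at 24 h in Tg cells. WT cells gave Shmt1 readings of 7.60 and 7.62 at 0 h, 10.86 and 10.62 at 6 h, and 10.68 and 10.72 at 24 h. Stimulated and unstimulated arrays were far apart, and the arrays of a group lay close together. Shmt1 rose by 2.96 ± 0.14 at 6 h (7.8-fold, adjusted p = 8.68e-06) and 2.66 ± 0.14 at 24 h (6.33-fold, adjusted p = 5.79e-05) in Tg cells, and by 3.13 ± 0.14 and 3.08 ± 0.14 in WT cells (adjusted p = 8.63e-06 and 2.04e-05).

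Mthfd1 read 9.45 and 9.46 at 0 h, 12.12 and 11.97 at 6 h, and 11.71 and 11.65 at 24 h in Tg cells. WT cells gave Mthfd1 readings of 9.49 and 9.43 at 0 h, 12.18 and 11.85 at 6 h, and 11.85 and 12.03 at 24 h. Mthfd1, the other cytosolic enzyme, was likewise uniform within groups. Its rise was 2.59 ± 0.12 at 6 h (6-fold) and 2.22 ± 0.12 at 24 h in Tg cells (adjusted p = 8.68e-06 and 5.48e-05), and 2.56 ± 0.12 and 2.48 ± 0.12 in WT cells (adjusted p = 8.63e-06 and 2.04e-05).

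The 3 mitochondrial enzymes rose with a wider spread. Mthfd2 read 10.39 and 11.01 at 0 h, 11.76 and 13.0 at 6 h, and 12.17 and 12.41 at 24 h in Tg cells. WT cells gave Mthfd2 readings of 10.27 and 10.88 at 0 h, 11.82 and 12.99 at 6 h, and 12.17 and 12.74 at 24 h. Here too the array marked Rep was the higher of each pair, at 0 h as well as later. Mthfd2 rose by 1.68 ± 0.48 at 6 h and 1.59 ± 0.48 at 24 h in Tg cells (adjusted p = 0.0292 and 0.0396) and by 1.83 ± 0.48 and 1.88 ± 0.48 in WT cells (adjusted p = 0.0191 and 0.0173). Its calls were lost without single arrays: in Tg cells at 6 h without either 0 h array or the 6 h array marked Rep (1.06 to 1.99, adjusted p = 0.0546 to 0.2) and at 24 h without any 1 of the 4 arrays compared (1.28 to 1.90, adjusted p = 0.0752 to 0.206). In WT cells they were lost without the unmarked 0 h array or the stimulated array marked Rep (1.25 to 1.59, adjusted p = 0.102 to 0.125). With all arrays and the replicate block in the limma fit, the 6 h rises of Mthfd2 had adjusted p = 0.000578 in Tg cells and 0.000355 in WT cells. With trended and robust moderation of the variances, the Tg calls of Phgdh and Mthfd2 at both times (adjusted p = 0.0713 to 0.0955) and the WT call of Mthfd2 at 6 h (adjusted p = 0.0507) missed the threshold. Shmt2 rose by 2.12 ± 0.27 and 1.66 ± 0.27 in Tg cells and by 2.11 ± 0.27 and 1.73 ± 0.27 in WT cells at 6 h and 24 h (adjusted p from 0.000432 to 0.00246). Mthfd1l rose by 1.83 ± 0.26 and 1.30 ± 0.26 in Tg cells and 1.81 ± 0.26 and 1.44 ± 0.26 in WT cells (adjusted p from 0.000826 to 0.00668). The Tg call of Mthfd1l at 24 h was lost without the unmarked 0 h array (1.10, adjusted p = 0.0556). Between 6 h and 24 h in Tg cells, Shmt2 and Mthfd1l differed by -0.46 ± 0.27 and -0.52 ± 0.26, which passed with the replicate block (adjusted p = 0.0299 and 0.0247) and not without it (adjusted p = 0.34 and 0.251).

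The purine route builds IMP on phosphoribosyl pyrophosphate (PRPP). Prps1 and Prps2 are PRPP synthetases, Ppat is the amidotransferase of the first committed step, and Gart, Pfas, Paics, Adsl and Atic carry out the steps that follow. At 6 h, 7 of the 8 genes were raised in each genotype, all but Prps2, and at 24 h all 8 were. The median rise was 1.18 at 6 h and 1.13 at 24 h in Tg cells, and 1.13 and 1.19 in WT cells. Ppat read 9.56 and 9.48 at 0 h, 11.13 and 11.05 at 6 h, and 11.01 and 10.82 at 24 h in Tg cells. WT cells gave Ppat readings of 9.46 and 9.65 at 0 h, 11.26 and 11.08 at 6 h, and 10.92 and 11.28 at 24 h. The stimulated arrays did not overlap the unstimulated ones in either genotype. Ppat rose by 1.57 ± 0.13 at 6 h (2.97-fold, adjusted p = 5.77e-05) and 1.39 ± 0.13 at 24 h (adjusted p = 0.000268) in Tg cells and by 1.62 ± 0.13 and 1.55 ± 0.13 in WT cells (adjusted p = 4.68e-05 and 0.000108).

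Pfas and Gart, which act on the growing ring (Gart at 3 separate steps in mammals), rose most within this route. Pfas rose by 1.97 ± 0.11 and 1.73 ± 0.11 in Tg cells and 2.06 ± 0.11 and 2.04 ± 0.11 in WT cells at 6 h and 24 h, and Gart by 1.91 ± 0.10 and 1.55 ± 0.10 in Tg cells and 1.81 ± 0.10 and 1.59 ± 0.10 in WT cells (adjusted p of 8.13e-05 or below for both genes). Adsl, which releases fumarate, rose by 1.04 to 1.11 and Atic, the enzyme of the last 2 steps, by 1.19 to 1.27 over the 4 comparisons with 0 h. Paics rose less, by 0.65 ± 0.14 and 0.76 ± 0.14 in Tg cells and 0.58 ± 0.14 and 0.69 ± 0.14 in WT cells. Its 6 h calls were lost in Tg cells without the unmarked array at 0 h or 6 h (0.53 to 0.62, adjusted p = 0.0506 to 0.0611) and in WT cells without either 0 h array or the unmarked 6 h array (0.49 to 0.58, adjusted p = 0.0568 to 0.0877).

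The 2 PRPP synthetases moved at different times. Prps1 read 11.20 and 11.48 at 0 h, 12.32 and 12.44 at 6 h, and 11.95 and 11.86 at 24 h in Tg cells. WT cells gave Prps1 readings of 11.38 and 11.54 at 0 h, 12.49 and 12.47 at 6 h, and 11.92 and 12.05 at 24 h. Prps2 read 11.85 and 11.67 at 0 h, 12.10 and 11.68 at 6 h, and 12.43 and 12.46 at 24 h in Tg cells. WT cells gave Prps2 readings of 11.87 and 11.83 at 0 h, 12.09 and 11.69 at 6 h, and 12.45 and 12.60 at 24 h. Prps1 was highest at 6 h in all 4 sets of arrays, whereas Prps2 was highest at 24 h. Prps1 rose by 1.04 ± 0.11 at 6 h and 0.57 ± 0.11 at 24 h in Tg cells and by 1.02 ± 0.11 and 0.52 ± 0.11 in WT cells, and was lower at 24 h than at 6 h, with differences of -0.47 and -0.50 (adjusted p = 0.0211 and 0.0183). Prps2 differed from 0 h by 0.13 ± 0.16 at 6 h in Tg cells and 0.04 ± 0.16 in WT cells (adjusted p = 0.649 and 0.911), then rose by 0.69 ± 0.16 and 0.67 ± 0.16 at 24 h (adjusted p = 0.0134 and 0.0135). The change of Prps1 after 6 h was not called without any 1 of the 4 Tg arrays compared (-0.53 to -0.42, adjusted p = 0.0528 to 0.132) or, in WT cells, without either 6 h array or the unmarked 24 h array (-0.51 to -0.43, adjusted p = 0.0728 to 0.118). Its WT call at 24 h against 0 h was lost without the unmarked 0 h array or the 24 h array marked Rep (0.44 to 0.46, adjusted p = 0.0521 to 0.0532). The Prps2 calls at 24 h against 0 h were lost in Tg cells without either 24 h array or the 0 h array marked Rep (0.60 to 0.70, adjusted p = 0.0582 to 0.0962), and in WT cells without either 0 h array or the 24 h array marked Rep (0.59 to 0.69, adjusted p = 0.0521 to 0.0813). Prps2 at 24 h against 6 h passed narrowly in Tg cells (0.56 ± 0.16, adjusted p = 0.0496), a call lost without any of 9 single arrays (0.34 to 0.57, adjusted p = 0.0603 to 0.285). In WT cells (0.63 ± 0.16, adjusted p = 0.0325) it was lost without either 24 h array or the 6 h array marked Rep (0.43 to 0.71, adjusted p = 0.089 to 0.181).

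Ppat and Paics lie head to head on chromosome 5, at 76913249 to 76951578 on the minus strand and 76951302 to 76967509 on the plus strand (GRCm38.p6), and overlap by 277 bases at their starts. Their promoter windows, 250 bases before to 50 after the annotated start, are printed from RefSeq because the genes overlap at their starts and both rose. The windows themselves share no base. Capitals mark the letters TTTCCCGC on either strand in the Ppat window, one spelling of the element bound by E2F factors, which drive S phase genes. In the Paics window they mark CACGTG, the E-box core bound by MYC and its relatives. Ppat lies on the minus strand (chr5:76951529-76951828) and Paics on the plus strand (chr5:76951052-76951351).
Ppat: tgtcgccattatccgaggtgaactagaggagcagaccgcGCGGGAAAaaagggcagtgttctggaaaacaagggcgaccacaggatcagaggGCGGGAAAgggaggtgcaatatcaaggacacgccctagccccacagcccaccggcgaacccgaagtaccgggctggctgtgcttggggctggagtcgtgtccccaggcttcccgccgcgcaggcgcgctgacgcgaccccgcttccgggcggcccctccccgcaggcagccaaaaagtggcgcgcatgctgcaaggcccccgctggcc
Paics: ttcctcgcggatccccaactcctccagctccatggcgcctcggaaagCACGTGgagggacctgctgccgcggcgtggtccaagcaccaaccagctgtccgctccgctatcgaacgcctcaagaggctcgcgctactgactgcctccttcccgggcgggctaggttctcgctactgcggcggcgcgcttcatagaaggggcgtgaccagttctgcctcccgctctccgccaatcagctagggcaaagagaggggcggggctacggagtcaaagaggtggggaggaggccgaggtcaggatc
The Ppat window holds the element at positions -211 and -158 from the start, and the Paics window holds the E-box at -203. These marked letters lie outside the overlap of the genes.

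Atic and Nme1 also hold CACGTG close to the start, Atic on the plus strand (chr1:71556906-71557205) at position -7 and Nme1 on the minus strand (chr11:93967976-93968275) at -29. Both were raised at 6 h and 24 h. They are shown with the E-box in capitals. The window of the outermost Nme1 start (chr11:93968223-93968522) holds a separate CACGTG at -18 and is not printed.
Atic: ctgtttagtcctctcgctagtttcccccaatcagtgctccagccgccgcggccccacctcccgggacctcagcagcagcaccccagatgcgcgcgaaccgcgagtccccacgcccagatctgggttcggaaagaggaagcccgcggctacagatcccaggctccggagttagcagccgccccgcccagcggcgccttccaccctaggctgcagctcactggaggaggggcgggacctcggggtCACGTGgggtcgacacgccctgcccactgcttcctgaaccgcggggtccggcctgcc
Nme1: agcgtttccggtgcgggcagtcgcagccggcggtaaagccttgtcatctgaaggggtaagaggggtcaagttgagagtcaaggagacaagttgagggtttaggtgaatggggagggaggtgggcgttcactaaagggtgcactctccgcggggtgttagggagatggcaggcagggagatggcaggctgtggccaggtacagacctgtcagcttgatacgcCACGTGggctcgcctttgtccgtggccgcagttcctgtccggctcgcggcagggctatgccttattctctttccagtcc
Over the module, 36 of the 40 genes had a promoter window, and Dhodh, Pfas, Rrm2b and Srm had none. On either strand CACGTG occurred in 5 of the 36 (13.9%: Ak4, Atic, Nme1, Paics and Tyms), against 8.09% of 27025 genes with such windows. The E2F spellings TTTGGCGC, TTTCCCGC, TTTCGCGC and TTTGCCGC occurred in 2 (5.56%: Ppat and Prps2), against 2.60% of all genes. TGATGNAA, the core of the element bound by the amino acid response factor ATF4, occurred in 1 (2.78%: Prps1), against 4.51%, and CCAAT, the NF-Y box, in 16 (44.4%), against 41.1%. None of these searches was tested against the background, and a match describes the letters of the window alone.

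From IMP, Impdh1 makes xanthosine monophosphate and Gmps turns that into GMP. Impdh1 read 10.31 and 10.23 at 0 h, 10.89 and 10.72 at 6 h, and 10.15 and 10.28 at 24 h in Tg cells. WT cells gave Impdh1 readings of 10.33 and 10.32 at 0 h, 11.07 and 10.77 at 6 h, and 10.35 and 10.43 at 24 h. Impdh1 was higher at 6 h than at 0 h and at 24 h on every array of both genotypes. Its rise was 0.54 ± 0.11 at 6 h in Tg cells and 0.59 ± 0.11 in WT cells (adjusted p = 0.00636 and 0.00369). At 24 h it differed from 0 h by -0.06 ± 0.11 and 0.06 ± 0.11 (adjusted p = 0.794 and 0.76), and from 6 h by -0.60 ± 0.11 and -0.53 ± 0.11 (adjusted p = 0.00856 and 0.0148). The Tg call at 6 h was lost without the unmarked 6 h array (0.45, adjusted p = 0.0527). The calls between 24 h and 6 h were lost without either unmarked array: in Tg cells the values were then -0.53 and -0.51 (adjusted p = 0.056 to 0.0694), and in WT cells -0.49 and -0.38 (adjusted p = 0.0773 to 0.0931). Gmps stayed raised, by 0.70 ± 0.12 at 6 h and 0.74 ± 0.12 at 24 h in Tg cells and by 0.67 ± 0.12 and 0.76 ± 0.12 in WT cells (adjusted p from 0.00135 to 0.00216).

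The salvage enzymes rose as well. Hprt1, which returns hypoxanthine and guanine to the nucleotide pool, rose by 0.75 ± 0.09 at 6 h and 0.91 ± 0.09 at 24 h in Tg cells and 0.80 ± 0.09 and 1.14 ± 0.09 in WT cells (adjusted p from 8.84e-05 to 0.000313). Aprt, which does the same for adenine, rose by 0.93 ± 0.17 and 0.70 ± 0.17 in Tg cells and 1.0 ± 0.17 and 0.83 ± 0.17 in WT cells (adjusted p from 0.00211 to 0.0161). Between 6 h and 24 h Hprt1 rose further in WT cells (0.34 ± 0.09, adjusted p = 0.0357) and stood 0.16 ± 0.09 higher in Tg cells (adjusted p = 0.311). That WT call was lost without any of 10 single arrays (0.30 to 0.39, adjusted p = 0.0509 to 0.167). The 24 h call of Aprt was lost in Tg cells without either 24 h array or the 0 h array marked Rep (0.62 to 0.72, adjusted p = 0.0569 to 0.106), and in WT cells without either array marked Rep (0.68 to 0.71, adjusted p = 0.0501 to 0.054).

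Pyrimidine synthesis starts with Cad, the trifunctional enzyme of its first 3 steps, passes through the mitochondrial Dhodh and the bifunctional Umps to UMP, and ends with the CTP synthetases Ctps1 and Ctps2. At 6 h Cad, Dhodh, Umps and Ctps1 rose and Ctps2 fell in both genotypes. Cad read 9.55 and 9.73 at 0 h, 12.03 and 11.93 at 6 h, and 11.36 and 11.26 at 24 h in Tg cells. WT cells gave Cad readings of 9.64 and 9.73 at 0 h, 12.10 and 11.88 at 6 h, and 11.50 and 11.56 at 24 h. Every stimulated array exceeded every unstimulated one, and the 6 h arrays stood above the 24 h arrays. Cad rose by 2.34 ± 0.10 at 6 h (5.07-fold, adjusted p = 8.68e-06) and 1.67 ± 0.10 at 24 h (3.17-fold, adjusted p = 6.59e-05) in Tg cells, and by 2.31 ± 0.10 and 1.85 ± 0.10 in WT cells (adjusted p = 8.63e-06 and 2.72e-05). It was lower at 24 h than at 6 h, with differences of -0.67 in Tg cells and -0.46 in WT cells (adjusted p = 0.00342 and 0.0191), the WT call being lost without either unmarked array (-0.42 to -0.35, adjusted p = 0.104 to 0.11). Umps rose by 2.02 ± 0.11 and 1.35 ± 0.11 in Tg cells and 2.05 ± 0.11 and 1.72 ± 0.11 in WT cells at 6 h and 24 h (adjusted p of 0.00017 or below). Dhodh, the target of the drug leflunomide's active form, rose by 0.63 ± 0.13 in Tg cells and 0.66 ± 0.13 in WT cells at 6 h (adjusted p = 0.00724 and 0.00518). At 24 h Dhodh stood 0.35 ± 0.13 and 0.45 ± 0.13 above 0 h (adjusted p = 0.0965 and 0.034). The Tg call of Dhodh at 6 h was lost without the unmarked array at 0 h or 6 h (0.52 to 0.55, adjusted p = 0.0584 to 0.0595), and its WT call at 24 h without either 0 h array or the 24 h array marked Rep (0.32 to 0.52, adjusted p = 0.0628 to 0.203).

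The CTP synthetase genes moved in opposite directions. Ctps1 read 8.10 and 8.29 at 0 h, 10.65 and 10.75 at 6 h, and 10.35 and 9.97 at 24 h in Tg cells. WT cells gave Ctps1 readings of 8.14 and 8.28 at 0 h, 10.77 and 10.79 at 6 h, and 10.31 and 10.69 at 24 h. Ctps2 read 11.91 and 11.98 at 0 h, 11.25 and 11.44 at 6 h, and 11.54 and 11.58 at 24 h in Tg cells. WT cells gave Ctps2 readings of 11.86 and 11.93 at 0 h, 11.13 and 11.33 at 6 h, and 11.55 and 11.39 at 24 h. Ctps1 was above all of its unstimulated readings on every stimulated array, and Ctps2 was below all of its own on every one. Ctps1, known to be needed for lymphocyte proliferation in humans, rose by 2.51 ± 0.16 at 6 h (5.69-fold, adjusted p = 1.84e-05) and 1.97 ± 0.16 at 24 h (3.91-fold, adjusted p = 0.000147) in Tg cells, and by 2.57 ± 0.16 and 2.29 ± 0.16 in WT cells (adjusted p = 1.56e-05 and 5.27e-05). Ctps2 changed by -0.60 ± 0.10 at 6 h and -0.38 ± 0.10 at 24 h in Tg cells (adjusted p = 0.00222 and 0.0246) and by -0.66 ± 0.10 and -0.42 ± 0.10 in WT cells (adjusted p = 0.00122 and 0.0141). Its 24 h call was lost in Tg cells without any 1 of the 4 arrays compared (-0.42 to -0.35, adjusted p = 0.0743 to 0.128), and in WT cells without either array marked Rep (-0.39 to -0.34, adjusted p = 0.083 to 0.0979). The lower Ctps1 level at 24 h than at 6 h in Tg cells (-0.54 ± 0.16, adjusted p = 0.0496) was lost without any of 9 single arrays (-0.59 to -0.35, adjusted p = 0.0664 to 0.245), and in WT cells the difference was -0.28 ± 0.16 (adjusted p = 0.3).

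Deoxynucleotide genes split by time. Dctd, dCMP deaminase, rose early, the replication genes Rrm1, Rrm2, Tyms, Tk1 and Dut rose mainly at 24 h, Dck and Rrm2b fell at 6 h, and Samhd1 moved little. Dctd read 8.20 and 8.14 at 0 h, 11.95 and 11.85 at 6 h, and 11.37 and 11.48 at 24 h in Tg cells. WT cells gave Dctd readings of 8.12 and 8.0 at 0 h, 11.95 and 11.85 at 6 h, and 11.64 and 11.93 at 24 h. The 4 unstimulated readings lay close together and every stimulated array was far above them. Dctd rose by 3.73 ± 0.11 at 6 h (13.2-fold, adjusted p = 1.4e-06) and 3.25 ± 0.11 at 24 h (9.51-fold, adjusted p = 4.78e-06) in Tg cells, and by 3.85 ± 0.11 and 3.73 ± 0.11 in WT cells (adjusted p = 1.05e-06 and 1.38e-06). In Tg cells it was lower at 24 h than at 6 h (-0.48 ± 0.11, adjusted p = 0.018), a call lost without either 6 h array or the unmarked 24 h array (-0.53 to -0.42, adjusted p = 0.0618 to 0.12).

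Rrm1 and Rrm2 encode the large and small subunits of ribonucleotide reductase. Rrm2 read 9.30 and 9.21 at 0 h, 8.99 and 8.54 at 6 h, and 12.86 and 11.59 at 24 h in Tg cells. WT cells gave Rrm2 readings of 9.36 and 8.71 at 0 h, 8.90 and 8.24 at 6 h, and 12.77 and 11.87 at 24 h. At 6 h every array read below the 0 h array of its own set, and at 24 h every array read far above it, the unmarked arrays highest. Rrm2 differed from 0 h by -0.49 ± 0.44 at 6 h in Tg cells and -0.47 ± 0.44 in WT cells (adjusted p = 0.519 and 0.528). At 24 h it had risen by 2.97 ± 0.44 (7.83-fold, adjusted p = 0.00162) and 3.28 ± 0.44 (9.73-fold, adjusted p = 0.000772), and from 6 h to 24 h by 3.46 ± 0.44 and 3.75 ± 0.44 (adjusted p = 0.0017 and 0.00142). Rrm1 read 10.50 and 10.60 at 0 h, 10.94 and 10.72 at 6 h, and 13.03 and 12.14 at 24 h in Tg cells. WT cells gave Rrm1 readings of 10.58 and 10.40 at 0 h, 10.86 and 10.64 at 6 h, and 12.86 and 12.34 at 24 h. Rrm1 showed the same timing with a smaller range. It rose by 2.04 ± 0.27 at 24 h in Tg cells and 2.11 ± 0.27 in WT cells (adjusted p = 0.000901 and 0.000568), against 0.29 ± 0.27 and 0.26 ± 0.27 at 6 h (adjusted p = 0.53 and 0.567).

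**Figure D3:**
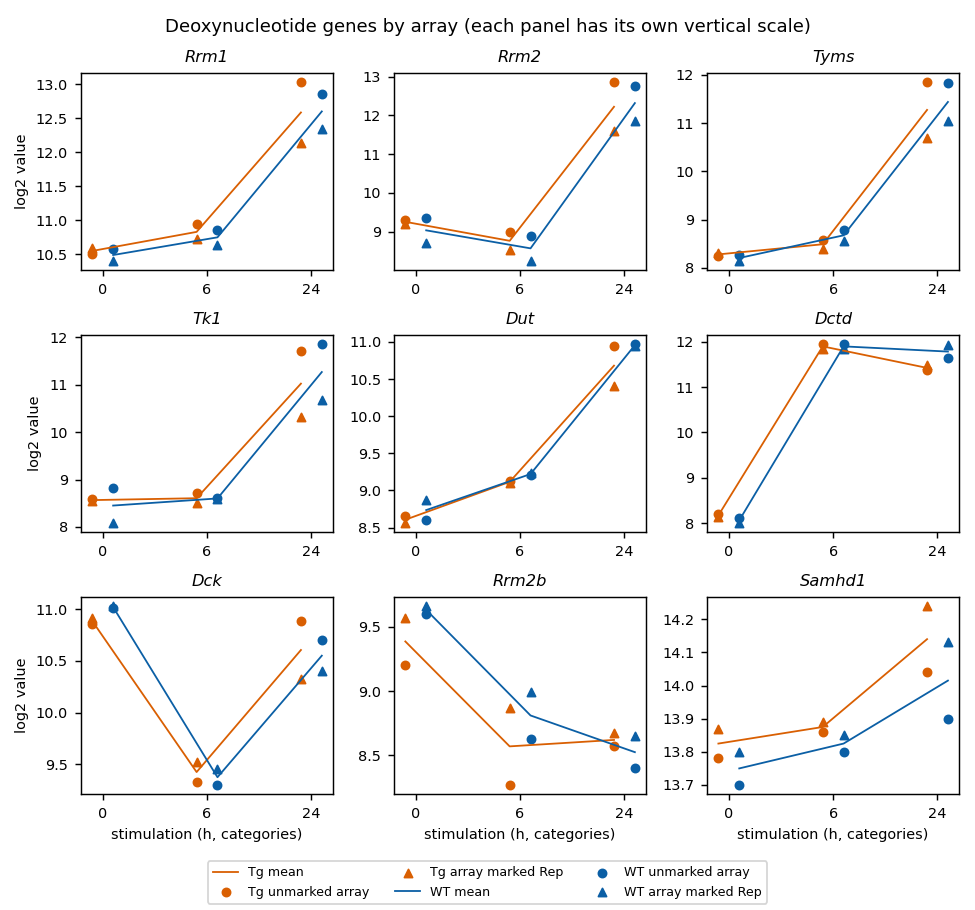
Log2 values of the 9 deoxynucleotide genes by array at 0, 6 and 24 h (equally spaced categories), in Tg (orange) and WT (blue) cells. Circles are unmarked arrays, triangles arrays marked Rep, and lines join group means. Dctd is high at 6 h, Rrm1, Rrm2, Tyms, Tk1 and Dut are high at 24 h, and Dck is low at 6 h.

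Rrm2b, the small subunit used outside S phase and induced by p53, moved the other way. Rrm2b read 9.20 and 9.57 at 0 h, 8.27 and 8.87 at 6 h, and 8.57 and 8.67 at 24 h in Tg cells. WT cells gave Rrm2b readings of 9.60 and 9.66 at 0 h, 8.63 and 8.99 at 6 h, and 8.40 and 8.65 at 24 h. Its stimulated arrays read below both unstimulated arrays of their genotype. Rrm2b fell by 0.81 ± 0.21 at 6 h and 0.77 ± 0.21 at 24 h in Tg cells (adjusted p = 0.0185 and 0.027) and by 0.82 ± 0.21 and 1.10 ± 0.21 in WT cells (adjusted p = 0.0175 and 0.00422). The 6 h calls were lost in Tg cells without the unmarked 6 h array or the 0 h array marked Rep (-0.63 to -0.51, adjusted p = 0.129 to 0.137) and in WT cells without either 0 h array or the unmarked 6 h array (-0.85 to -0.64, adjusted p = 0.0628 to 0.121). The Tg call at 24 h was lost without either 24 h array or the 0 h array marked Rep (-0.82 to -0.58, adjusted p = 0.0743 to 0.18), whereas the WT call at 24 h was kept in every alternative.

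Thymidylate comes from Tyms, which methylates dUMP with a folate carbon, and from the salvage kinase Tk1. Dut supplies dUMP by cleaving dUTP. Tyms read 8.25 and 8.31 at 0 h, 8.58 and 8.40 at 6 h, and 11.85 and 10.70 at 24 h in Tg cells. WT cells gave Tyms readings of 8.27 and 8.14 at 0 h, 8.79 and 8.56 at 6 h, and 11.83 and 11.05 at 24 h. The 6 h arrays lay close to the 0 h arrays, and the 24 h arrays stood well above both. Tyms rose by 3.0 ± 0.34 at 24 h in Tg cells (8-fold, adjusted p = 0.000512) and 3.24 ± 0.34 in WT cells (9.44-fold, adjusted p = 0.000257), and differed by 0.22 ± 0.34 and 0.47 ± 0.34 at 6 h (adjusted p = 0.739 and 0.391). Its promoter window on the minus strand (chr5:30073576-30073875) is shown because Tyms carries CACGTG (capitals, position -61) and passed at 24 h alone, whereas the other 4 genes with that motif passed at 6 h and at 24 h.
Tyms: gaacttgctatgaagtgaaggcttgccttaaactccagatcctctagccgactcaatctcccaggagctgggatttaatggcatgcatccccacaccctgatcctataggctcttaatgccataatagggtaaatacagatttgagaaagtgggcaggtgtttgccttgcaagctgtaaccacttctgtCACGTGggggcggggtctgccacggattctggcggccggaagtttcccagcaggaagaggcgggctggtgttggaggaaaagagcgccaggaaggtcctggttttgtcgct

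Tk1 read 8.58 and 8.55 at 0 h, 8.71 and 8.50 at 6 h, and 11.72 and 10.33 at 24 h in Tg cells. WT cells gave Tk1 readings of 8.82 and 8.08 at 0 h, 8.61 and 8.59 at 6 h, and 11.86 and 10.68 at 24 h. Tk1 was low at 0 h and 6 h and high at 24 h, with the 24 h array marked Rep well below its partner in both genotypes. It rose by 2.46 ± 0.47 at 24 h in Tg cells (5.5-fold, adjusted p = 0.00521) and 2.82 ± 0.47 in WT cells (7.05-fold, adjusted p = 0.00212), and by 2.42 ± 0.47 and 2.67 ± 0.47 between 6 h and 24 h (adjusted p = 0.0097 and 0.00718). The Tg call between 6 h and 24 h was lost without the unmarked 24 h array or the 6 h array marked Rep (1.73 to 2.32, adjusted p = 0.0607 to 0.0699). A second Tk1 probe set rose by 3.10 ± 0.52 in Tg cells and 3.07 ± 0.52 in WT cells at 24 h (adjusted p = 0.0028 and 0.00233). Dut rose by 2.08 ± 0.16 at 24 h in Tg cells and 2.22 ± 0.16 in WT cells (adjusted p = 0.000128 and 6.44e-05). At 6 h Dut passed narrowly, at 0.51 ± 0.16 and 0.49 ± 0.16 (adjusted p = 0.0419 and 0.0489). Those 6 h calls were lost without any of 8 single arrays in Tg cells (0.46 to 0.56, adjusted p = 0.0573 to 0.183) and of 10 in WT cells (0.35 to 0.62, adjusted p = 0.0518 to 0.25), with the values as deposited (adjusted p = 0.0654 and 0.0767) and with median centring (adjusted p = 0.0802 and 0.0956). The WT call was lost as well with all rows (0.054), array weights (0.0601) and only the groups compared (0.0551).

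Dck, the kinase that salvages deoxycytidine, deoxyadenosine and deoxyguanosine, fell at 6 h and then returned. Dck read 10.86 and 10.91 at 0 h, 9.33 and 9.52 at 6 h, and 10.89 and 10.32 at 24 h in Tg cells. WT cells gave Dck readings of 11.01 and 11.03 at 0 h, 9.30 and 9.45 at 6 h, and 10.70 and 10.40 at 24 h. All 6 h arrays read below all 0 h and all 24 h arrays, and the 24 h arrays overlapped the 0 h range in Tg cells and lay under it in WT cells. Dck fell by 1.46 ± 0.17 at 6 h in Tg cells and 1.64 ± 0.17 in WT cells (adjusted p = 0.000313 and 0.000158) and was higher at 24 h than at 6 h by 1.18 ± 0.17 and 1.18 ± 0.17 (adjusted p = 0.00314 and 0.00348). At 24 h it stood -0.28 ± 0.17 and -0.47 ± 0.17 from 0 h (adjusted p = 0.318 and 0.0812). The mean of 6 B cell markers was also lower at 6 h. It was 11.10 and 11.11 at 0 h, 10.12 and 10.39 at 6 h, and 11.14 and 10.95 at 24 h in Tg cells. In WT cells it was 10.86 and 11.0, 9.87 and 10.38, and 10.96 and 10.40. The part of B cell RNA in the Dck values was not tested.

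Samhd1, which hydrolyses deoxynucleoside triphosphates, read 13.70 to 14.24 over all 12 arrays. At 24 h it stood 0.32 ± 0.10 above 0 h in Tg cells and 0.27 ± 0.10 in WT cells (adjusted p = 0.0515 and 0.087). With the replicate block these values passed (adjusted p = 0.0158 and 0.0304), as did the Tg difference between 24 h and 6 h (0.27 ± 0.10, adjusted p = 0.0466 with the block, against 0.127 without it).

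The late rise went with markers of DNA replication. The mean of 11 such genes (the Mcm genes, Pcna, Mki67 and others) was 10.54 and 10.53 at 0 h, 10.60 and 10.45 at 6 h, and 12.35 and 11.72 at 24 h in Tg cells. In WT cells it was 10.56 and 10.42, 10.56 and 10.33, and 12.31 and 11.94. The 24 h array marked Rep was the lower of its pair in both genotypes, as for Rrm1, Rrm2, Tyms, Tk1 and Dut, and the part of cell cycle entry in those values was not tested.

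Of the nucleotide kinases, Nme1, Nme2, Ak4 and Uck2 rose at both times in both genotypes and Cmpk1 did not pass. Ak4 read 6.49 and 6.57 at 0 h, 9.86 and 10.11 at 6 h, and 9.45 and 8.80 at 24 h in Tg cells. WT cells gave Ak4 readings of 6.21 and 6.33 at 0 h, 9.82 and 9.77 at 6 h, and 9.11 and 10.40 at 24 h. The unstimulated readings lay close to 6.02, the lower quartile of the tested probe sets, and the 24 h arrays of each pair were far apart. The table carries no detection call, so whether these dim readings lie above background is unknown and no fold is given. Ak4, a mitochondrial adenylate kinase, rose by 3.46 ± 0.35 at 6 h (adjusted p = 0.000134) and 2.59 ± 0.35 at 24 h (adjusted p = 0.00107) in Tg cells, and by 3.52 ± 0.35 and 3.48 ± 0.35 in WT cells (adjusted p = 0.00012 and 0.000216), on the log2 scale. A second Ak4 probe set moved far less, by 0.79 ± 0.27 at 6 h and 0.65 ± 0.27 at 24 h in Tg cells (adjusted p = 0.0611 and 0.124) and by 1.05 ± 0.27 and 0.86 ± 0.27 in WT cells (adjusted p = 0.0173 and 0.0419), so the size of the Ak4 rise depends on the probe set.

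Nme1 and Nme2 are nucleoside diphosphate kinases with near-identical sequences whose genes lie 2668 bases apart on chromosome 11, and whether their probe sets separate them was not tested. Nme1 read 8.96 and 9.06 at 0 h, 11.43 and 11.23 at 6 h, and 11.13 and 11.07 at 24 h in Tg cells. WT cells gave Nme1 readings of 9.05 and 9.12 at 0 h, 11.53 and 11.27 at 6 h, and 11.18 and 11.49 at 24 h. Every stimulated array stood far above every unstimulated one. Nme1 rose by 2.32 ± 0.13 at 6 h (5-fold, adjusted p = 1.27e-05) and 2.09 ± 0.13 at 24 h (adjusted p = 6.59e-05) in Tg cells, and by 2.31 ± 0.13 and 2.25 ± 0.13 in WT cells (adjusted p = 1.36e-05 and 2.72e-05). Nme2 rose by 1.13 ± 0.08 and 0.72 ± 0.08 in Tg cells and by 1.03 ± 0.08 and 0.76 ± 0.08 in WT cells at 6 h and 24 h (adjusted p of 0.000504 or below). It was lower at 24 h than at 6 h in Tg cells (-0.41 ± 0.08, adjusted p = 0.011), which did not pass without the unmarked 24 h array or the 6 h array marked Rep (-0.39 to -0.31, adjusted p = 0.0767 to 0.0787). In WT cells the same difference was -0.28 ± 0.08 (adjusted p = 0.0557, and 0.0459 with the replicate block).

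Uck2, the uridine and cytidine kinase of salvage, rose by 1.02 ± 0.08 and 0.89 ± 0.08 in Tg cells and 0.98 ± 0.08 and 0.92 ± 0.08 in WT cells at 6 h and 24 h (adjusted p of 0.000219 or below), and its second probe set rose at both times in both genotypes too. Cmpk1, which phosphorylates UMP and CMP, read 11.62 to 12.08 on all arrays and differed from 0 h by -0.21 to -0.02 (adjusted p from 0.157 to 0.906).

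Srm, spermidine synthase, makes a polyamine that growing cells need. Srm read 11.28 and 11.13 at 0 h, 14.05 and 13.80 at 6 h, and 13.55 and 13.41 at 24 h in Tg cells. WT cells gave Srm readings of 11.42 and 11.21 at 0 h, 14.04 and 13.77 at 6 h, and 13.63 and 13.75 at 24 h. All stimulated arrays lay far above the unstimulated ones, and the spread within a group was small. Srm rose by 2.72 ± 0.13 at 6 h (6.6-fold, adjusted p = 8.68e-06) and 2.28 ± 0.13 at 24 h (4.84-fold, adjusted p = 6.59e-05) in Tg cells, and by 2.59 ± 0.13 and 2.37 ± 0.13 in WT cells (adjusted p = 1.02e-05 and 2.72e-05). The Tg difference between 24 h and 6 h, -0.45 ± 0.13, passed with the replicate block (adjusted p = 0.0157) and not without it (adjusted p = 0.0527).

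A wider list of genes from these pathways was also read. Of 76 genes listed besides the members, 62 had a probe set. At 6 h 21 were higher and 5 lower than at 0 h in Tg cells, and 17 higher and 8 lower in WT cells, with medians of 0.20 and 0.22. At 24 h 18 were higher and 6 lower in Tg cells and 20 higher and 6 lower in WT cells, with medians of 0.19 and 0.15. Called genes made up 38.7% to 41.9% of this list in the 4 comparisons, against 23.8% to 26.7% of all probe sets and 80.0% to 87.5% of the members. Members and list were both chosen with earlier results of these data known, and whether they differ was not tested. In the folate and methionine group at 24 h, the folate carrier Slc19a1 rose by 1.45 ± 0.08 in Tg cells and 1.58 ± 0.08 in WT cells (adjusted p = 6.59e-05 and 2.72e-05), and Gcsh of the glycine cleavage system by 1.72 ± 0.18 and 2.03 ± 0.18 (adjusted p = 0.000393 and 0.000133). Unstimulated Gcsh read 5.30 to 5.84, below the lower quartile of 6.02, so whether those readings lie above background is unknown. Mat2b, the regulatory subunit of methionine adenosyltransferase, fell by 0.43 ± 0.07 in Tg cells and 0.56 ± 0.07 in WT cells (adjusted p = 0.00262 and 0.000625).

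In the polyamine group Mtap, which salvages methylthioadenosine, rose at 24 h by 0.88 ± 0.08 in Tg cells and 1.0 ± 0.08 in WT cells (adjusted p = 0.000268 and 9.73e-05). Odc1, ornithine decarboxylase, fell by 0.79 ± 0.18 at 24 h in Tg cells (adjusted p = 0.0127) and stood -0.44 ± 0.18 from 0 h in WT cells (adjusted p = 0.116). Odc1 and Slc19a1 each had a second probe set, which is not described here. Among purine genes Ada, adenosine deaminase, rose by 1.39 ± 0.19 in Tg cells and 1.17 ± 0.19 in WT cells (adjusted p = 0.000986 and 0.00169), and Adk, adenosine kinase, fell by 0.97 ± 0.17 and 0.83 ± 0.17 (adjusted p = 0.00375 and 0.00637). In the pyrimidine and deoxynucleotide group the nucleoside transporter Slc29a1 rose by 1.46 ± 0.18 in Tg cells and 1.72 ± 0.18 in WT cells (adjusted p = 0.000636 and 0.00022), Dtymk, thymidylate kinase, by 1.12 ± 0.13 and 1.04 ± 0.13 (adjusted p = 0.000514 and 0.000509), and Dctpp1, which cleaves dCTP, by 1.66 ± 0.28 and 1.87 ± 0.28 (adjusted p = 0.00293 and 0.0013).

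The design sets Tg cells against WT cells at each time. Within the module no gene differed between Tg and WT cells past the threshold, at 0 h, 6 h or 24 h or over the mean of the 3 times (limma), with or without the replicate block. Over all probe sets 0.00854% were called at each time, each of them higher in Tg cells, and 0.0256% over the mean (0.0214% higher, 0.00427% lower). With the block these shares were 0.0171% at each time and 0.0769% over the mean. An unadjusted p under 0.05 was found for 0 members at 0 h, 0 at 6 h, 4 at 24 h and 0 over the mean. The share of all probe sets at that unadjusted level is not given here, so these counts are not read as a result. The precision differed between genes, with SEs of the fit from 0.08 to 0.52. For genes with the larger SEs, Psat1 and Phgdh among them, the data leave room for large differences as well as small ones.

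At 0 h the members' median difference was -0.02, with 18 genes higher and 22 lower in Tg cells, and at 6 h -0.02, with 16 higher and 24 lower. The medians over all probe sets were -0.02 and -0.01. Neither tally had a settled direction: without the unmarked 0 h Tg array it was 22 higher and 18 lower at 0 h (median 0.03), and without the unmarked 6 h WT array 26 higher and 14 lower at 6 h (median 0.02). The largest at 0 h were Ak4 at 0.26 ± 0.35 and Phgdh at 0.25 ± 0.51 on the higher side and Rrm2b at -0.25 ± 0.21 on the lower side. At 6 h Rrm2b stood at -0.24 ± 0.21 and Ak4 at 0.20 ± 0.35 (adjusted p = 1 for each of these values).

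At 24 h 35 of the 40 genes read lower in Tg cells, with a median of -0.17, against -0.01 over all probe sets. The shift differed in size between the sets of arrays: it was -0.02 between the unmarked arrays and -0.31 between the arrays marked Rep. Without the 24 h WT array marked Rep, or without all 3 WT arrays marked Rep, the median was -0.09, with 26 genes lower and 14 higher, and without the 24 h Tg array marked Rep it was -0.10, with 29 lower and 11 higher. The same pairs of arrays differed in markers of some other cells. Neutrophil markers had means of 10.58 in Tg cells and 11.44 in WT cells for the unmarked arrays, and 10.13 and 7.93 for the arrays marked Rep. By group means, all 7 monocyte, all 6 B cell and all 7 NK markers read higher in Tg cells at 24 h, as did all 9 neutrophil markers, none past the threshold. Monocyte markers had a median difference of -0.33 in the unmarked arrays and 1.58 in the arrays marked Rep, B cell markers 0.16 and 0.54, and NK markers 0.65 and 0.42. The means of the 10 activation markers were 12.20 in Tg cells and 12.22 in WT cells for the unmarked arrays, and 12.48 and 12.69 for the arrays marked Rep. Those of the 11 replication markers were 12.35 and 12.31 for the unmarked arrays, and 11.72 and 11.94 for the arrays marked Rep. The parts of other cells' RNA, of activation and of cell cycle entry in the shift were not tested. In the limma fit the 4 genes with an unadjusted p under 0.05 were Dctd (-0.36 ± 0.11), Umps (-0.32 ± 0.11), Shmt1 (-0.40 ± 0.14) and Mthfd1 (-0.26 ± 0.12), each with an adjusted p of 1. For Dctd both pairs of arrays ran the same way, at -0.28 and -0.45, and for Shmt1 at -0.18 and -0.61.

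Ak4 showed how far a single array can carry a value. Its mean difference, Tg minus WT, was -0.63 at 24 h, but the unmarked arrays differed by 0.34 and the arrays marked Rep by -1.61, and the groups overlapped. Its second probe set gave -0.26 ± 0.27.

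The responses themselves were compared through the interaction of genotype and time. No member passed at 6 h or at 24 h, nor did any of the 23410 probe sets (0% called). By an unadjusted p under 0.05 in the limma fit, 0 members passed at 6 h and 2 at 24 h. These were Dctd (-0.48 ± 0.15) and Umps (-0.36 ± 0.16), each with a limma adjusted p of 1. Here too the share of all probe sets at the unadjusted level is not given, so the count is not read as a result. The median of the absolute difference between the genotypes' responses was 0.05 at 6 h, the largest being 0.31 for Phgdh, and 0.15 at 24 h, the largest being 0.89 for Ak4.

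**Figure D4:**
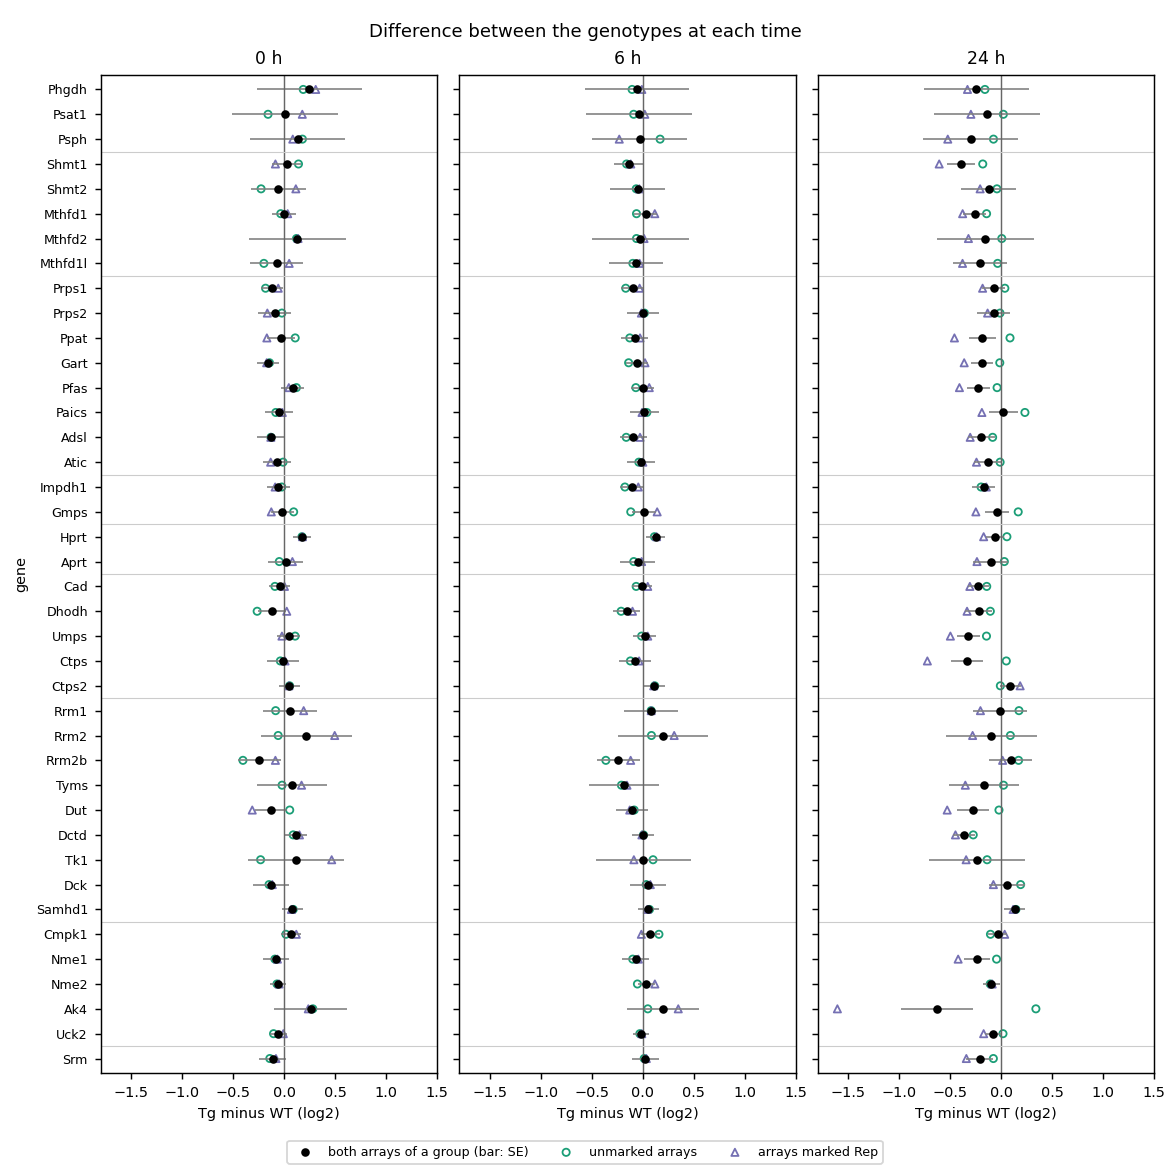
Difference between Tg and WT cells for each gene at 0, 6 and 24 h, as the group means with the SE of the fit (black) and within the unmarked arrays (circles) and the arrays marked Rep (triangles). No gene passed the threshold, and at 24 h the triangles lie mostly left of 0 while the circles lie near it.

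Within the groups, the arrays with and without the mark Rep differed in ways that depended on the gene and had the same direction in both genotypes for the sets named here. The mark is not explained in the labels. Phgdh, Psat1, Psph, Shmt2, Mthfd2 and Mthfd1l, the genes of serine synthesis and of the mitochondrial folate route, read higher on the array marked Rep. These 6 were grouped after their values were seen, so their differences are described without a test. Their median difference, marked minus unmarked array, was 0.42 at 0 h, 1.12 at 6 h and 0.43 at 24 h in Tg cells, and 0.23, 1.20 and 0.69 in WT cells. All 6 were higher on the marked array in the 4 stimulated groups, but at 0 h Psph read lower on it (-0.19 in Tg and -0.095 in WT cells). Such a difference was not particular to these genes. Rrm2b (0.61 and 0.36 at 6 h in Tg and WT cells) and Samhd1 were higher on the marked array in all 6 groups. In the wider list of pathway genes the difference reached 3.71. The cytosolic enzymes Shmt1 and Mthfd1 did not share this: on the 6 h arrays both read lower with the mark.

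The genes Rrm1, Rrm2, Tyms, Tk1 and Dut ran the other way at 24 h, likewise grouped after their values were seen. Their median difference was -1.16 in Tg cells and -0.78 in WT cells, and all 5 were lower on the marked array in both. For Dut in WT cells the difference was only -0.03. Dck, outside this set, was lower on the marked array at 24 h too (-0.57 in Tg and -0.30 in WT cells). At 0 h and 6 h the median of the 5 genes lay between -0.22 and -0.04. The other 29 members had medians from -0.18 to 0.14 in the 6 groups.

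**Figure D5:**
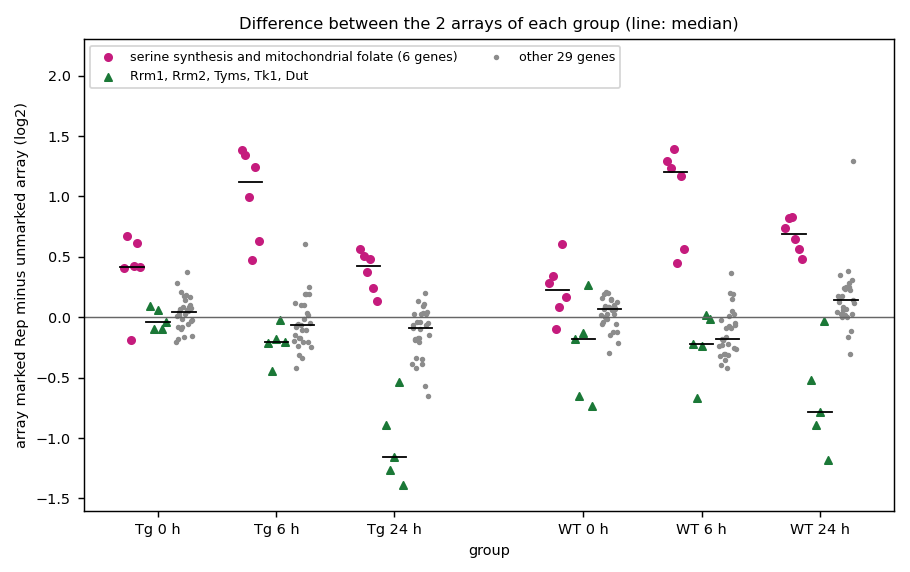
Difference in log2 value between the array marked Rep and the unmarked array of each group, for 6 genes of serine synthesis and mitochondrial folate metabolism, for Rrm1, Rrm2, Tyms, Tk1 and Dut, and for the other 29 genes. Lines are medians: the first set lies above 0 in all 6 groups, at 1.12 and 1.20 at 6 h, and the second lies at -1.16 and -0.78 at 24 h.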

How the data were processed

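Labelled RNA of 12 samples was measured on 1 one-colour array each. The authors deposited a single table of log2 values for 28853 probe sets, whose background correction and normalisation are not given in the sources used here. Deposited values ran from 3.49 to 15.38. Of the probe sets 21789 had 1 gene symbol in the platform annotation, 1621 several and 5443 none. Samples were grouped by genotype and time from their titles.

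Because the medians of the arrays, 7.39 to 7.50, differed by more than 0.1, the deposited values were quantile normalised between arrays. The 23410 probe sets with a symbol were fitted with limma 3.58.1 in R 4.3.3 (lmFit and eBayes, a mean for each of the 6 groups). The fit had 6 residual and 3.05 prior degrees of freedom. Errors are standard errors of the fit, p-values are two-sided, and they were adjusted by the Benjamini-Hochberg method within each of 12 comparisons. A difference was called at an adjusted p under 0.05. Python 3.11.15 with numpy 2.4.6 and pandas 2.3.3 wrote the tables, and matplotlib 3.10.9 drew the figures.

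The mark Rep in the titles was read as replicate 2 and its absence as replicate 1. Deviations from the group means of equally marked arrays correlated between groups in all 15 pairs of groups (r = 0.138 to 0.591 across probe sets), so the mark pairs the arrays, and the pairing was entered as a block in an alternative fit. Further fits used median-centred values, the deposited values without further normalisation, array weights, or trended and robust moderation. They also used all rows, probe sets other than the dimmest 40%, 1 probe set per gene or the mean of a gene's probe sets. Fits with fewer arrays took only the groups compared, left out each array in turn, or left out all 3 WT arrays with the mark.

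Every member was to be named, and of each list of other pathway genes the 4 with the smallest p in each 24 h comparison could be. The members and lists were chosen with earlier results of these data known. No genome was used. Promoter windows and coordinates came from RefSeq tables of GRCm38.p6. The number of arrays limits the precision.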

Additional observations from a re-analysis of the deposited data

How the results depend on the processing

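Of 158 called differences of single genes, 119 kept their call and direction under all 23 alternatives and none reversed. The kept calls were 25 of 32 at 6 h against 0 h in Tg cells and 27 of 32 in WT cells, 27 of 34 and 27 of 35 at 24 h against 0 h, and 7 of 14 and 6 of 11 at 24 h against 6 h. With 1 array left out at a time, the number of raised members ran from 24 to 29 at 6 h in Tg cells and from 25 to 29 in WT cells, from 28 to 32 and 27 to 34 at 24 h, and from 5 to 7 and 6 to 8 at 24 h against 6 h. The number of lowered members ran from 2 to 3 in both genotypes at 6 h, from 0 to 2 in Tg cells and 1 to 3 in WT cells at 24 h, and from 3 to 9 and 0 to 4 at 24 h against 6 h. Lowered WT members numbered 1, in place of 2, at 24 h against 0 h, both with only the groups compared and with the 3 WT arrays marked Rep left out. At 24 h against 6 h they numbered 0 and 1 under these settings, in place of 3. The replicate block kept all 158 calls. With it 32, 35 and 18 members were called in Tg cells at 6 h, at 24 h and between these times, and 32, 37 and 12 in WT cells, and it changed no other call than those given with its value in the report. No alternative gave a called difference between genotypes or between their responses: each count stayed at 0. The median difference between Tg and WT cells at 24 h ran from -0.25 without the unmarked WT array to -0.09 without the WT array marked Rep, and was -0.22 with median centring. Dim genes are the least certain: unstimulated Ak4 lay near the lower quartile of the probe sets, and unstimulated Gcsh of the wider list lay below it.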

Other observations

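Other genes of the pathways showed no called difference between genotypes at any time (limma, with or without the replicate block), with a median over 62 genes of -0.09 at 24 h. Upp1, uridine phosphorylase, stood 1.39 ± 0.78 higher in Tg cells at 24 h and Slc29a1 differed by -0.44 ± 0.18 (adjusted p = 1 for both). Further genes of these lists passed at 24 h against 0 h in both genotypes. Aldh1l1, a folate dehydrogenase, rose by 0.75 and 0.69 in Tg and WT cells, and Azin1, the antizyme inhibitor that spares ornithine decarboxylase, by 0.66 and 0.93. Oaz2, an antizyme, fell by 0.59 and 0.51. Itpa, which removes deaminated purine nucleotides, rose by 0.79 and 0.78, and Ampd2, an AMP deaminase, by 0.93 and 1.06. Nme6, a further member of the nucleoside diphosphate kinase family, rose by 1.04 and 1.16. Itpa and Nme6 each had a second probe set, which is not described here.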
